A study of Mus musculus with 19 samples.

Results

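The far end of the Shh gene desert, a stretch of 15 bins of 10 kb on mouse chromosome 5 from 29370001 to 29520000 (mm9), was examined for its contacts with everything outside the desert. Its bins lie 580 to 720 kb above the bin that holds the Shh promoter (28790001 to 28800000), and they were defined by position, with earlier results of these data known. Each was paired with all 211 bins outside the desert, the 108 bins from 27800001 to 28880000 and the 103 bins from 29570001 to 30600000. This gives 3165 bin pairs per map of 39340 in all. By gene order in a gene table of another build, no protein-coding gene lies between Shh and Rnf32, and Lmbr1 follows Rnf32. No gene is placed at a bin here.

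Shh encodes the secreted signal Sonic hedgehog, and most of its regulatory DNA lies far from the gene in a desert without other protein-coding genes. Enhancers that drive Shh in the linings of the mouth, pharynx, lung and gut lie in the far part of that desert, toward Rnf32, and the stretch was chosen for its distance, which is theirs. The limb enhancer of Shh, the ZRS, lies further on in an intron of Lmbr1. Domains of frequent contact such as that of Shh end at borders, where the DNA-binding protein CTCF is often bound. Chromosome capture methods count how often 2 places are joined after fixation, and they do not measure enhancer activity.

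The study made capture Hi-C maps, in which ligated DNA of a chosen region is enriched with probes, from 19 samples in 9 groups. Wild type limb bud (3 samples) and wild type midbrain (2 samples) came from C57BL/6 embryos at E10.5. Wild type embryonic stem (ES) cells (2 samples) and all mutants carry the label G4. The mutant limb buds, also of E10.5 and 2 samples each, lack the CTCF sites named i4 and i5 (called i4i5 here), these sites and a further one named for the ZRS (i4i5ZRS), the element ZRSreg, ZRSreg together with i4 and i5 (i4i5 plus ZRSreg), or the Lmbr1 promoter on both alleles. Mutant midbrain of E10.5 (2 samples) lacks the 3 CTCF sites of i4i5ZRS. The labels give zygosity only for the Lmbr1 promoter deletion. The submitters call the wild type samples biological and the mutant samples technical replicates, and among the 3 samples of wild type limb 2 carry one library number. Strain differs between every mutant and its wild type tissue, so genotype and strain cannot be told apart in those comparisons. The 2 limb maps ZRSreg and Lmbr1 promoter share the strain label of the CTCF deletions and serve as a second reference.

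Each group was deposited as 1 merged map, so there is no replicate error, no test and no p-value. Contact is given as the signal over the map's own mean signal over all bin pairs of equal separation, so that 1 is the average of the region. Brackets hold 95% intervals of counting error only, which compare these libraries and not the conditions. Contacts between the stretch and its partners numbered 28958 in limb i4i5, the shallowest map, to 61924 in wild type limb, with a median of 6 to 12 per pair. Bins of the stretch were unevenly covered. The bin at 620 kb had the most contacts in every map, 30246 in wild type limb. The bins at 580, 590 or 710 kb had the fewest, 5120 at 710 kb in wild type limb. The bin at 610 kb was nearly as thin, with 5853 in wild type limb. Values of these thin bins are the least certain.

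Partners were divided into blocks around 2 borders, the bins of lowest mean insulation over the 9 maps below and above the desert, at -30 kb (28760001 to 28770000) and at 910 kb (29700001 to 29710000). Within the Shh domain the stretch has the Shh side (28770001 to 28880000, 11 bins, with Shh) below it and the upper end of the domain (29570001 to 29700000, 13 bins, with the ZRS window) above it. Outside lie the lower flank (28260001 to 28760000) and the upper flank (29710001 to 30210000), each 500 kb long, and the more distant bins on either side. The stretch itself held no border. Its insulation score, a log2 value near 0 for the average bin, averaged -0.01 in wild type limb and lay between -0.06 and 0.08 in the 9 maps, against -0.78 at the upper border and -1.04 at the lower border of wild type limb.

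The stretch met the Shh side far more often than the regional average and the upper flank far less often, in all 9 maps. In wild type limb its contact was 2.21 (2.14 to 2.28) with the Shh side, 1.08 (1.06 to 1.11) with the lower flank, 1.00 (0.980 to 1.02) with the upper end of the domain and 0.572 (0.560 to 0.585) with the upper flank. All 11 bins of the Shh side were above 1 in every map. None of the 50 bins of the upper flank was above 1 in 8 of the maps, and 2 were in limb i4i5. The highest single partner in wild type limb was the bin at 20 kb, just above the promoter, at 2.85 (2.56 to 3.18). That bin was also the highest in wild type midbrain at 3.11 (2.73 to 3.52), whereas in ES cells the promoter bin itself was, at 3.15 (2.94 to 3.36). The intervals of these peaks overlap between the 3 maps.

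**Figure D1:**
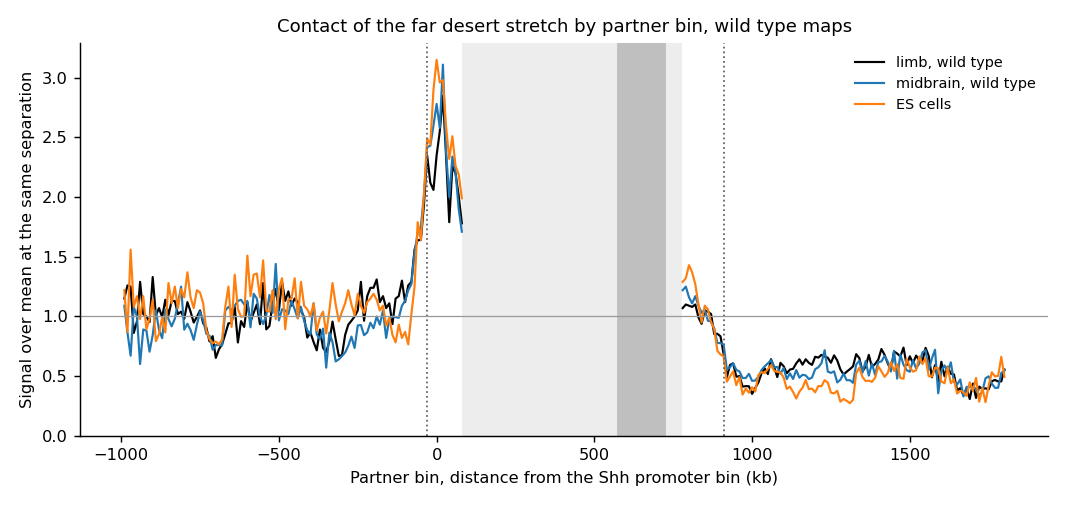
Mean contact of the 15 bins of the stretch with each partner bin (vertical axis, signal over the mean at the same separation) against the partner's distance from the Shh promoter bin in kb, for the 3 wild type maps. The desert is light grey, the stretch dark grey and the borders dotted; all 3 lines peak above 2.8 near the promoter and lie below 0.8 above the upper border.

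A value over the average at the same separation depends on what else lies at that separation. Of all pairs 800 kb apart 6.50% lie within the Shh domain, at 500 kb 18.7% do and at 200 kb 28.1%. Levels of the stretch and of nearer desert bins are therefore set side by side without a claim that they differ. The 49 desert bins below the stretch met the Shh side at 1.35 (1.33 to 1.36) in wild type limb, and the 5 desert bins above it at 2.82 (2.72 to 2.93). With the upper end of the domain the order was the opposite, 1.55 (1.54 to 1.57) below the stretch, 1.00 in it and 0.836 (0.818 to 0.853) above it.

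Contact with the 2 bins of the Shh promoter (28780001 to 28800000) was examined bin by bin, since it is the pairing by which an enhancer in the stretch would meet its gene. The 15 bins averaged 2.20 (2.09 to 2.32, 1801 contacts) in wild type limb. The bin at 720 kb (29510001 to 29520000), the last of the stretch, was the highest of the 15 in all 9 maps. Among the wild types its promoter contact was 5.25 for ES cells, 4.46 for midbrain and 3.65 for limb. Midbrain i4i5ZRS gave 4.71. Of the limb deletions, ZRSreg and the Lmbr1 promoter both gave 3.83, i4i5ZRS 3.57, i4i5 plus ZRSreg 3.46 and i4i5 3.27. The other 14 bins lay between 1.54 and 2.64 in wild type limb, all below the interval of the 720 kb bin (3.22 to 4.12). The same bin was the highest of the 15 with the lower flank in all 9 maps, and with the upper flank in 7 of 9. With the upper end of the domain it was the highest in none.

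The bins just outside the stretch were also high. The bin at 570 kb met the promoter at 3.77 and the bin at 730 kb at 4.37 in wild type limb, and in ES cells at 4.50 and 6.64. In wild type limb the 570 kb bin was the highest of the 49 desert bins below the stretch, which averaged 1.37 with a median of 1.16. The 5 desert bins above the stretch averaged 3.71. The 14 bins from 580 to 710 kb thus lie between the 570 kb bin and this higher upper end, and the choice of stretch ends at the rise.

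Promoter contact of the stretch was higher in the other wild type maps than in limb. It was 2.69 (2.53 to 2.85) in midbrain, a log2 ratio to limb of 0.29 (0.17 to 0.40), with 13 of 15 bins higher. In ES cells it was 3.02 (2.86 to 3.19), a log2 ratio of 0.46 (0.35 to 0.57), again with 13 of 15 bins higher. Both promoter bins were higher in each comparison. ES cells and wild type limb differ in strain label as well as cell type, and these cannot be told apart in that comparison. The 2 limb maps that share the G4 label with ES cells carry deletions. Their promoter contact was 2.25 (2.11 to 2.39) in ZRSreg and 2.31 (2.19 to 2.43) in the Lmbr1 promoter deletion. The part of strain was not tested. The ES value was 0.23 when contacts were not balanced and 0.03 when maps were scaled to their total alone, which lowers all the stretch's ES to limb ratios by a median of 0.60.

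The rise in ES cells was uneven along the stretch, a split made after the values were seen. In the 7 bins from 660 to 720 kb promoter contact was 3.80 against 2.37 in limb, a log2 ratio of 0.68 (0.54 to 0.82), with all 7 higher. The single bins from 660 to 710 kb stood at 3.00 to 4.23 in ES cells and at 1.54 to 2.37 in limb, without overlap. The lowest limb value and the highest ES value of these bins belong to the thinly covered bin at 710 kb, on 32 and 59 contacts. At 720 kb limb stood at 3.65, inside that ES range, and ES cells at 5.25, so over all 7 bins the values overlap. In the 8 bins from 580 to 650 kb promoter contact was 2.34 against 2.06, a log2 ratio of 0.18 (0.01 to 0.36), with 6 of 8 higher. In midbrain the same split gave 0.35 (0.20 to 0.50) for the 7 bins and 0.22 (0.04 to 0.40) for the 8 bins, intervals that overlap.

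**Figure D2:**
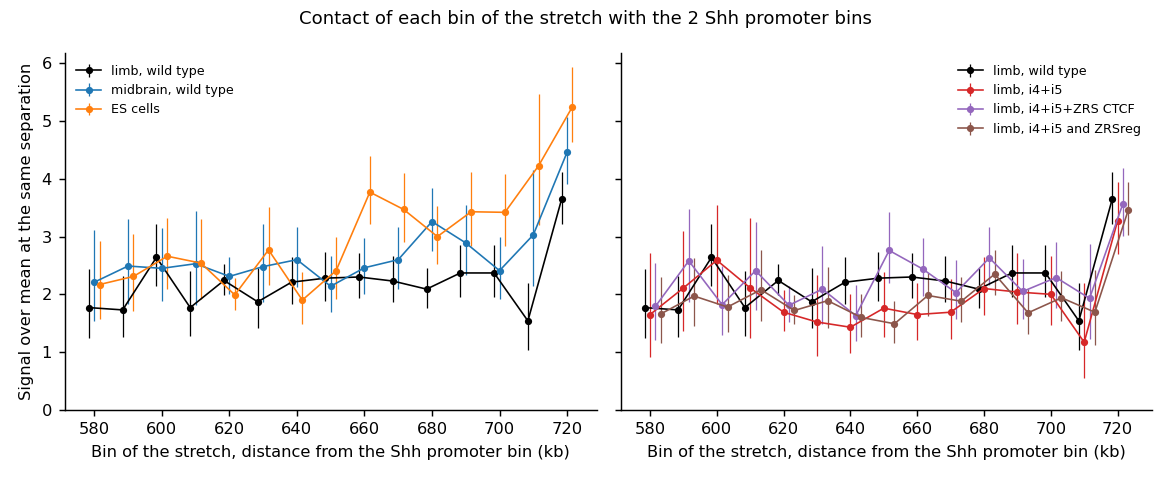
Contact of each of the 15 bins with the 2 Shh promoter bins (vertical axis, signal over the mean at the same separation) by the bin's distance from the promoter bin in kb, for the wild type maps (left) and wild type limb beside 3 limb CTCF deletions (right). Bars are 95% counting intervals; the 720 kb bin is the highest in every map shown, and ES cells lie above limb from 660 kb on.

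With the whole Shh side, ES cells stood at 2.57 (2.49 to 2.65), a log2 ratio to limb of 0.22 (0.16 to 0.28), with 15 of 15 stretch bins and 11 of 11 partners higher. This direction turned under scaling to the total alone, where the ratio was -0.16. Midbrain stood at 2.37 (2.28 to 2.45), a ratio of 0.10 (0.03 to 0.17), with 12 of 15 bins higher, and of 0.00 under scaling to the total alone. Of the 9 maps, ES cells had the highest contact with the Shh side and limb i4i5 the lowest.

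Above the upper border the order was reversed. The stretch met the upper flank at 0.539 (0.525 to 0.554) in midbrain and at 0.437 (0.425 to 0.449) in ES cells, the lowest of the 9 maps. The ES to limb ratio was -0.39 (-0.44 to -0.34), with 15 of 15 stretch bins and 45 of 50 partners lower. Over the alternatives it ran from -0.57 to -0.28. The lowest partner stripes, a stripe being the mean of the 15 bins with 1 partner, were at 1310 kb (0.273 against 0.558, a ratio of -1.03), 1140 kb (-0.96) and 1260 kb (-0.93). Of the 211 stripes, 27 (12.8%) were lower in ES cells by a log2 ratio of 0.5 or more, 20 of them in the upper flank, and 6 (2.84%) were higher. Among all 56088 stripes of 15 neighbouring bins and 1 partner at these separations in the region, 12.8% were lower and 3.28% higher, so the stretch's share was that of the region. The counts were 0 higher and 121 lower under scaling to the total alone, and 10 higher and 19 lower with the median as the expected value.

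Between midbrain and limb few stripes differed. Only 1 of 211 was higher by that fold, against 1.08% in the region, and 5 were lower, against 1.48% (0 and 13 under scaling to the total alone). The lowest was at -940 kb (27850001 to 27860000), 0.601 against 1.29, on 50 and 105 contacts, a log2 ratio of -1.10 (-1.68 to -0.54). The ratio of midbrain to limb for the upper flank was -0.09 (-0.14 to -0.04) in the stretch and 0.13 in the desert bins below it, a difference of -0.21 (-0.27 to -0.16). A like difference, -0.21 (-0.26 to -0.16), separated the same sets of bins when midbrain and limb lacking the 3 CTCF sites were compared, where the stretch gave -0.06 and the bins below it 0.15. The 2 comparisons use different maps.

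Within the stretch, contact outside the domain varied more in some maps than in others. With the upper flank, single bins ran from 0.507 at 650 kb to 0.713 at 720 kb in wild type limb and from 0.327 at 600 kb to 0.542 at 720 kb in ES cells. In midbrain the range was narrower, from 0.488 at 710 kb to 0.573 at 650 kb. With the lower flank, wild type limb ran from 0.932 at 620 kb to 1.34 at 720 kb and ES cells from 0.789 at 590 kb to 1.54 at 720 kb. Among the bins of the stretch, the last thus stood out with partners on both sides of the domain in limb and ES cells. In midbrain it did so with the lower flank (1.37) and not with the upper one. The adjoining desert bin at 730 kb, outside the stretch, had similar or higher values. It met the lower flank at 1.48 in wild type limb, 1.69 in ES cells and 1.37 in midbrain. With the upper flank it stood at 0.706 in wild type limb and 0.578 in ES cells. These high values were thus not particular to the last bin. The lowest bins in midbrain and ES cells, at 590, 600 or 710 kb, include those of thinnest coverage.

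In the maps with CTCF site deletions the stretch had more contact with the sequence above the upper border, in limb and in midbrain. The upper flank was met at 0.572 (0.560 to 0.585) in wild type limb, 0.761 (0.739 to 0.783) in i4i5, 0.714 (0.697 to 0.731) in i4i5ZRS and 0.727 (0.712 to 0.742) in i4i5 plus ZRSreg. Midbrain went from 0.539 in wild type to 0.683 (0.668 to 0.699) in i4i5ZRS. None of these intervals overlaps that of its wild type. The log2 ratios were 0.41 (0.36 to 0.46), 0.32 (0.27 to 0.37), 0.35 (0.30 to 0.39) and 0.34 (0.29 to 0.39) in that order, increases of 33.0%, 24.7%, 27.1% and 26.8%. All 15 stretch bins were higher in each of the 4 comparisons, and so were 50, 47, 49 and 50 of the 50 partners. The desert bins below the stretch gave ratios of 0.33, 0.32, 0.29 and 0.34, and those above it 0.41, 0.29, 0.32 and 0.26. The rise was thus not particular to the stretch.

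The maps of ZRSreg and of the Lmbr1 promoter deletion, which keep all these CTCF sites, did not show the rise. The upper flank was met at 0.556 (0.543 to 0.570) in ZRSreg and at 0.571 (0.558 to 0.584) in the Lmbr1 promoter deletion, both intervals overlapping that of wild type limb. Against the mean of these 2 maps, which share the G4 label with the CTCF deletions, the ratios were 0.43 for i4i5, 0.34 for i4i5ZRS and 0.37 for i4i5 plus ZRSreg. The ratio of i4i5 plus ZRSreg to ZRSreg was 0.39 (0.34 to 0.43), with 15 of 15 bins and 49 of 50 partners higher.

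**Figure D3:**
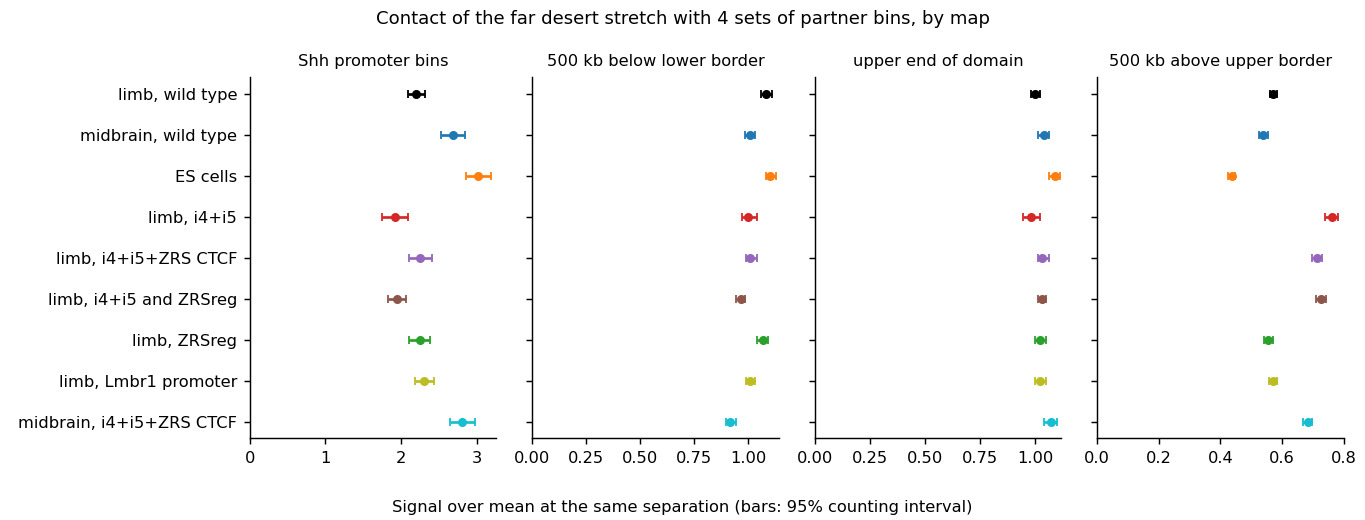
Contact of the 15 bins of the stretch with 4 sets of partner bins (horizontal axes, signal over the mean at the same separation) in each of the 9 maps. Points are means over bin pairs and bars 95% counting intervals. With the 500 kb above the upper border the 4 maps with CTCF site deletions lie at 0.683 to 0.761 and the 5 others at 0.437 to 0.572.

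The difference extended beyond the flank. With the 39 bins from 1420 to 1800 kb the stretch stood at 0.530 (0.511 to 0.550) in wild type limb and at 0.708, 0.634 and 0.681 in i4i5, i4i5ZRS and i4i5 plus ZRSreg. The log2 ratios were 0.42 (0.33 to 0.50), 0.26 (0.18 to 0.34) and 0.36 (0.29 to 0.43), and in midbrain 0.31 (0.23 to 0.40), with 15 of 15 bins higher each time. At the border bin itself, i4i5ZRS stood at 1.04 (0.922 to 1.16) against 0.681 (0.601 to 0.769) in wild type limb, and i4i5 at 0.850 (0.718 to 1.00). There i4i5 plus ZRSreg stood at 0.849 (0.755 to 0.951). Midbrain i4i5ZRS had 0.897 (0.793 to 1.01) against 0.762 (0.656 to 0.879) in its wild type. Apart from limb i4i5ZRS, the intervals of the deletions overlap those of their wild type.

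**Figure D4:**
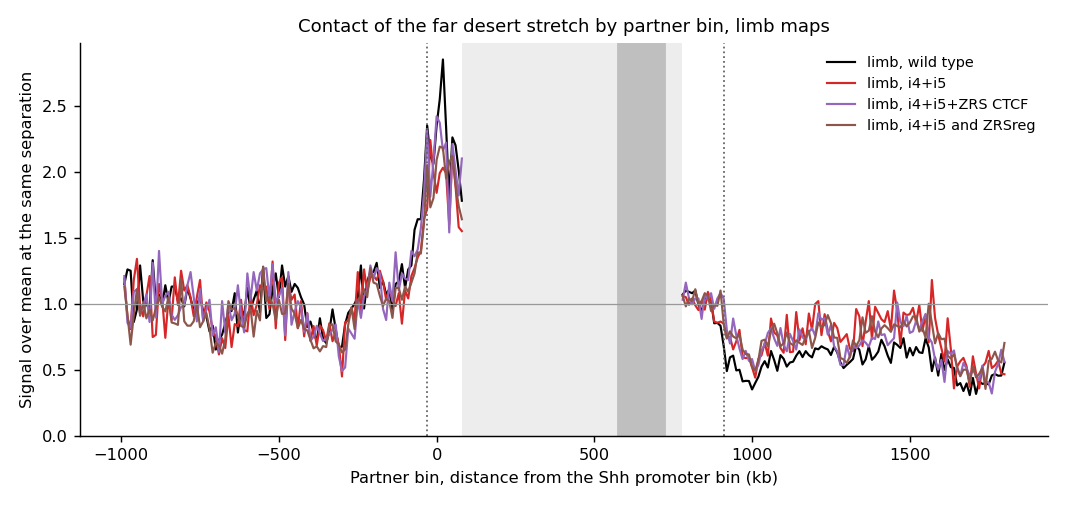
Mean contact of the 15 bins of the stretch with each partner bin, against the partner's distance from the Shh promoter bin in kb. The vertical axis is signal over the mean at the same separation. Lines are wild type limb and the 3 limb maps with CTCF site deletions. Grey areas and dotted lines mark the desert, the stretch and the borders; the 3 deletion lines lie above the black wild type line over most of the 920 to 1410 kb range.

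Stripe by stripe, 31 of the 211 (14.7%) were higher in limb i4i5 than in wild type by a log2 ratio of 0.5 or more, against 5.43% in the region, and all 31 lay above the upper border. A further 9 were lower, against 2.53%. In i4i5ZRS 17 (8.06%) were higher, against 3.36%, of which 14 lay above the border, and 6 were lower, against 2.29%. In i4i5 plus ZRSreg 20 (9.48%) were higher, against 3.13%, all above the border, and 3 were lower, against 1.50%. In midbrain i4i5ZRS 21 (9.95%) were higher, against 4.53%, 19 of them above the border, and 2 were lower, against 2.25%. Scaling to the total alone gave 67 higher and 1 lower in i4i5, 3 higher and 12 lower in i4i5ZRS and 10 higher and 4 lower in midbrain. With the median as the expected value i4i5 had 17 higher and 13 lower and i4i5ZRS 13 higher and 8 lower, and without balancing i4i5ZRS had 30 higher and 2 lower. Against the G4 maps i4i5ZRS and i4i5 plus ZRSreg each had 10 higher and 2 lower.

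Several of the highest stripes were shared between deletions, and differences between deletions at single stripes are given as values only. The bin at 1110 kb (29900001 to 29910000) was met at 0.916 in i4i5 against 0.524 in wild type limb, a log2 ratio of 0.81 (0.45 to 1.16), and at 0.764 in midbrain i4i5ZRS against 0.475 in its wild type, 0.69 (0.34 to 1.03). In i4i5ZRS the highest were at 1000 kb (0.581 against 0.351, a ratio of 0.73) and 920 kb (0.800 against 0.490, a ratio of 0.71, with 15 of 15 bins higher), and both bins were also higher in i4i5, at ratios of 0.56 and 0.59, and in i4i5 plus ZRSreg, at 0.57 and 0.59. These ratios share the wild type limb map, whose value at 1000 kb was the lowest of its upper flank. The mean of the 2 G4 limb maps was 0.425 at 1000 kb and 0.595 at 920 kb. Against it the i4i5 ratios were 0.29 and 0.31, below the fold of 0.5. At 1110 kb that mean was 0.569 and the i4i5 ratio 0.69. The bin at 1670 kb stood at ratios to wild type of 0.80 in i4i5 and 0.70 in i4i5ZRS. The 920 kb bin is the first above the border, and it was also among the highest in the Lmbr1 promoter deletion, at 0.655 and a ratio of 0.42 (0.23 to 0.61). The bin at 1570 kb had the highest ratio in i4i5, 1.27 (0.55 to 1.99), and in i4i5 plus ZRSreg, 0.80, but on 43 and 77 contacts against 46 in wild type, and it stood at 0.60 (-0.03 to 1.26) in ZRSreg, which keeps these sites.

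Toward Shh the stretch had less contact in the limb CTCF deletions than in wild type. With the Shh side it stood at 1.90 (1.80 to 1.99) in i4i5, 2.07 (1.99 to 2.15) in i4i5ZRS and 1.94 (1.88 to 2.02) in i4i5 plus ZRSreg, against 2.21 (2.14 to 2.28) in wild type. The log2 ratios were -0.22 (-0.31 to -0.14), -0.10 (-0.17 to -0.03) and -0.18 (-0.25 to -0.12), with 13, 12 and 14 of the 15 bins lower. The desert bins below the stretch gave -0.16, -0.02 and -0.11, and those above it -0.35, -0.30 and -0.33. The fall was thus not particular to the stretch. Scaling to the total alone left the stretch at -0.06 for i4i5 and -0.24 for i4i5ZRS, so the order of these deletions depends on the scaling. The ratio of i4i5 plus ZRSreg to ZRSreg was -0.16 (-0.23 to -0.09), or -0.03 under that scaling. In midbrain, i4i5ZRS and wild type stood at 2.36 and 2.37, a ratio of -0.01 (-0.08 to 0.07).

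At the promoter bins the deletions differed from each other. Contact was 1.92 (1.75 to 2.09, 699 contacts) in i4i5 and 1.95 (1.83 to 2.07) in i4i5 plus ZRSreg, log2 ratios to wild type limb of -0.20 (-0.35 to -0.05) and -0.18 (-0.30 to -0.06). Over the alternatives these ran from -0.32 to -0.03, the last under scaling to the total alone, and from -0.28 to -0.15. In i4i5ZRS it was 2.25 (2.10 to 2.41), a ratio of 0.03 (-0.09 to 0.16) that ran from -0.11 to 0.03 over the alternatives. Between i4i5ZRS and i4i5 the ratio was 0.23 (0.07 to 0.40), with 14 of 15 bins higher, and it turned to -0.07 under scaling to the total alone. Limb i4i5 is the shallowest map. For i4i5, i4i5 plus ZRSreg and i4i5ZRS the desert bins below the stretch gave promoter ratios to wild type of -0.24, -0.22 and -0.04. Those above it gave -0.29, -0.37 and -0.10. Between i4i5ZRS and i4i5 the bins below gave 0.20 and those above 0.19. These differences were thus not particular to the stretch. Promoter contact in ZRSreg (2.25) and in the Lmbr1 promoter deletion (2.31) lay within counting error of wild type limb, at ratios of 0.03 (-0.09 to 0.14) and 0.07 (-0.04 to 0.18). The Lmbr1 promoter deletion was uneven along the stretch, with 2.72 against 2.37 in the 7 bins from 660 kb on, a ratio of 0.20 (0.06 to 0.34) with 6 of 7 higher, and -0.08 (-0.26 to 0.09) in the 8 bins before them.

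Contact with the lower flank was lower in every CTCF deletion than in wild type, at 1.00, 1.01 and 0.965 in limb against 1.08 and at 0.917 against 1.01 in midbrain. The log2 ratios were -0.11, -0.10, -0.17 and -0.14. The Lmbr1 promoter deletion, which keeps these sites, gave -0.11 (-0.15 to -0.06) too. ZRSreg, which also keeps them and shares the G4 label, gave -0.02. The ratio of i4i5 plus ZRSreg to ZRSreg was -0.15. Against the mean of the 2 G4 maps the limb ratios were -0.05, -0.03 and -0.10. The part of strain in this difference was not tested. Under scaling to the total alone i4i5 gave 0.10. The lowest stripe was at -390 kb in midbrain i4i5ZRS, 0.555 against 1.11 on 116 and 208 contacts, with an interval of the log2 ratio from -1.38 to -0.63. That reference value was itself high, since the same bin was among the highest stripes of wild type midbrain over wild type limb, 1.11 against 0.786.

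The upper end of the domain, with the ZRS window, was met near the regional average throughout. Values ran from 0.981 in limb i4i5 to 1.09 in ES cells, and for the 5 bins of the ZRS window (29620001 to 29670000) from 1.01 in wild type limb to 1.08 in midbrain i4i5ZRS. In wild type limb this contact was 1.24 at 580 kb and 0.796 at 710 kb, the highest and lowest of the 15 bins. The bin at 710 kb was the lowest in 8 of 9 maps. Limb i4i5 was the exception, with 1.09 at 710 kb, 1.11 at 580 kb and its lowest value, 0.804, at 630 kb. Log2 ratios of the CTCF deletions to wild type were -0.03 (-0.09 to 0.03), 0.05 (0.00 to 0.10) and 0.04 (-0.01 to 0.09) in limb and 0.05 in midbrain. Under scaling to the total alone, i4i5ZRS gave -0.14.

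Here the log2 ratios of the stretch differed from those of the desert bins nearer to Shh, on signal over the mean at the same separation. Those bins met the upper end of the domain at 1.55 in wild type limb and at 1.29, 1.35 and 1.35 in i4i5, i4i5ZRS and i4i5 plus ZRSreg, log2 ratios of -0.27, -0.21 and -0.20. The ratio of the stretch exceeded theirs by 0.24 (0.17 to 0.31), 0.26 (0.20 to 0.31) and 0.24 (0.19 to 0.30), and in midbrain by 0.18 (0.13 to 0.24). The 2 sets of bins lie at different separations from the upper end of the domain. Other scalings were not run on the bins below the stretch, so these differences are known for this scaling only. The 5 desert bins above the stretch stood at 0.836 in wild type limb and at 0.867, 0.955 and 0.940 in the 3 deletions. In the upper flank, by contrast, the ratios of the stretch and of the bins below it differed by 0.08 (0.02 to 0.14) in i4i5 and by 0.00 (-0.05 to 0.05) in i4i5ZRS. They differed by 0.06 (0.01 to 0.11) in i4i5 plus ZRSreg and by 0.00 (-0.05 to 0.06) in midbrain i4i5ZRS.

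**Figure D5:**
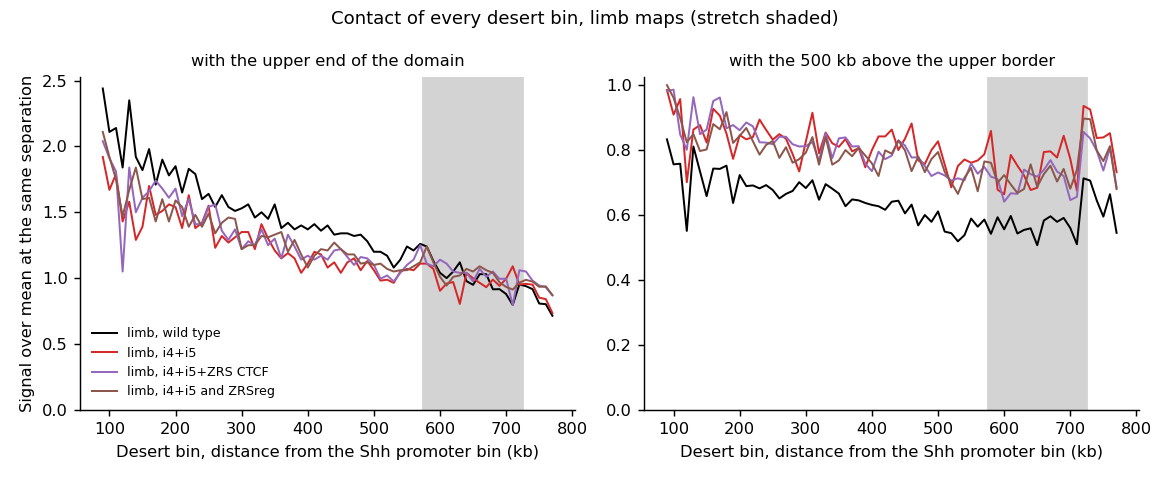
Contact of every desert bin with the upper end of the domain (left) and with the 500 kb above the upper border (right). The horizontal axis is distance from the Shh promoter bin in kb, with the stretch shaded. Values are signal over the mean at the same separation, for wild type limb and 3 limb maps with CTCF site deletions. On the left the deletions lie below wild type over most of the near desert and meet it within the stretch; on the right they lie above wild type along the desert.

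ZRSreg had 2 stripes higher than wild type limb, against 0.280% in the region, and 1 lower, against 0.478%. The Lmbr1 promoter deletion had 2 higher, against 0.394%, and 3 lower, against 0.248%. With scaling to the total alone ZRSreg had 2 higher and 2 lower, with the median as the expected value 1 and 2, and without balancing 6 and 1. The Lmbr1 promoter deletion had 0 higher and 9 lower under scaling to the total alone and 6 higher and 1 lower without balancing. Set against i4i5, limb i4i5ZRS had 5 stripes higher, against 0.854%, and 11 lower, against 1.35%, 10 of the 11 above the upper border, where the upper flank ratio was -0.09 (-0.15 to -0.04) and ran from -0.34 to -0.02 over the alternatives. The split of these stripes turned with the processing, to 16 higher and 3 lower without balancing and to 0 higher and 70 lower under scaling to the total alone. Set against i4i5, limb i4i5 plus ZRSreg had 3 higher, against 0.695%, and 3 lower, against 0.594% (1 and 18 under scaling to the total alone, 5 and 1 without balancing).

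Set against ZRSreg, i4i5 plus ZRSreg had 15 stripes higher, against 5.53%, all above the upper border, and 6 lower, against 1.84%, all 6 more than 530 kb below the promoter. Scaling to the total alone gave 41 and 2, and counts without balancing 14 and 9. Midbrain and limb without the 3 CTCF sites differed at 4 stripes higher in midbrain, against 1.64%, and 10 lower, against 3.42%, 9 of the 10 below the lower border (4 and 5 under scaling to the total alone, 4 and 3 without balancing). Of the 4, the bin at 20 kb had 3.21 in midbrain and 2.16 in limb, a log2 ratio of 0.57 (0.26 to 0.89). The promoter bins gave 0.32 (0.19 to 0.45) in that comparison, with 12 of 15 stretch bins higher in midbrain, beside the 0.29 of the wild type tissues. All comparisons with wild type limb share that map.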

How the data were processed

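Per the submitters' processing notes, the reads were processed with tools that include cutadapt 1.15, Bowtie2 2.3.4.1, SAMtools and Juicer on mm9. What settings they ran with, and how duplicates were handled, is not stated in those notes as used here. File names of the deposited maps mention a mapping quality filter. The authors deposited 1 merged map per group of balanced contact signal in 10 kb bins, 280 bins on chromosome 5 from 27800001 to 30600000. The values are scaled so that all bins of a map have equal totals.

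Whole contact counts were recovered from that deposited signal, within 0.01 of a whole number for 100.0% of listed pairs in all 9 maps. Totals ran from 1177173 in limb i4i5 to 3218492 in ES cells. Signal was divided by the mean of all pairs at the same separation, zeros included. That mean holds the stretch's own pairs, which slightly understates differences. Blocks were averaged over bin pairs. Intervals are Poisson (levels) or binomial (ratios) at 95%, on the effective number of contacts, which allows for unequal weights. They replaced exact Poisson intervals of raw contacts after the data were seen, as these proved too narrow on simulated maps. Counting intervals leave out duplicates and all variation between samples.

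The members, blocks and lists were chosen with earlier results of these data known. Named partners were the promoter bins, the ZRS window, the borders, each block's highest partner, and in each of the 12 comparisons the 3 highest and 3 lowest stripes at least 50 kb apart. The split of the stretch into 8 and 7 bins and the rank of its last bin were chosen after values were seen. Alternatives were the median in place of the mean as the expected value, the expected value without the stretch, unbalanced counts, scaling to the total alone, thinning to the shallowest map, the inner 11 bins, flanks of 300 kb, a log2 threshold of 0.3 and the G4 maps as reference. These alternatives were run on the stretch and not on the other desert bins. Scripts, tested on simulated maps, used Python 3.11.15, numpy 2.4.6, scipy 1.17.1 and matplotlib 3.10.9. Genes were ordered by a RefSeq table of the build GRCm38.p6. No sequence was printed, since no mm9 genome was used here.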

Additional observations from a re-analysis of the deposited data

How the results depend on the processing

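No paired analysis was possible because the samples of each group were merged into 1 map before deposit, and for the same reason no sample could be left out. Leaving the stretch out of the expected value kept all 24 log2 ratios for the Shh side and the upper flank within their intervals and all 12 stripe counts within 1.5 times. Contact levels were less stable. Of 54 levels, 49 left their counting interval with the median as the expected value and all 54 without balancing. Another 10 did so with the stretch left out of the expected value, and 8 with the inner 11 bins. The levels thus hold for the chosen expected value and balancing. Depth limits single stripes most: thinned to the shallowest map, 7 of the 12 stripe counts moved, but 21 of the 24 ratios did not.

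Below, "/" means over, and a map named alone is over its wild type (wild type maps, over limb). Scaling to the total alone shifted the median ratio by -0.60 in ES cells, 0.18 in i4i5, -0.16 in i4i5ZRS, -0.13 in the Lmbr1 promoter deletion, -0.34 in i4i5ZRS/i4i5, -0.14 in i4i5 plus ZRSreg/i4i5 and 0.13 in i4i5 plus ZRSreg/ZRSreg. Under it the Shh side ratio turned to -0.16 in ES cells and to -0.17 in i4i5ZRS/i4i5. It moved to 0.00 in midbrain, -0.06 in i4i5, -0.24 in i4i5ZRS, -0.12 in ZRSreg, -0.16 in the Lmbr1 promoter deletion, -0.09 in i4i5 plus ZRSreg/i4i5 and -0.03 in i4i5 plus ZRSreg/ZRSreg. The upper flank ratio moved to -0.15 in midbrain, -0.57 in ES cells, 0.53 in i4i5, 0.19 in i4i5ZRS, -0.14 in ZRSreg, -0.16 in the Lmbr1 promoter deletion, -0.34 in i4i5ZRS/i4i5, -0.18 in i4i5 plus ZRSreg/i4i5 and 0.50 in i4i5 plus ZRSreg/ZRSreg. The lower flank turned to 0.10 in i4i5, and the promoter to -0.07 in i4i5ZRS/i4i5. The upper end of the domain turned to -0.05 in midbrain, -0.14 in i4i5ZRS, -0.13 in i4i5ZRS/i4i5 and -0.06 in i4i5 plus ZRSreg/i4i5. Stripes past the fold numbered 13 in midbrain, 121 in ES cells, 68 in i4i5, 15 in i4i5ZRS, 9 in the Lmbr1 promoter deletion, 14 in midbrain i4i5ZRS, 70 in i4i5ZRS/i4i5, 19 in i4i5 plus ZRSreg/i4i5, 43 in i4i5 plus ZRSreg/ZRSreg and 9 in midbrain/limb i4i5ZRS.

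With the median for the expected value the Shh side ratio was 0.31 in ES cells, -0.35 in i4i5, -0.18 in i4i5ZRS, -0.28 in i4i5 plus ZRSreg and -0.24 in i4i5 plus ZRSreg/ZRSreg, and the upper flank ratio 0.32 in i4i5, 0.26 in i4i5ZRS, 0.28 in i4i5 plus ZRSreg and 0.32 in i4i5 plus ZRSreg/ZRSreg. Without balancing the upper flank ratio was 0.40 in i4i5ZRS, 0.43 in midbrain i4i5ZRS and -0.03 in i4i5ZRS/i4i5, the ratio beyond the flank turned to 0.01 in i4i5ZRS/i4i5, and stripes numbered 7 in ZRSreg, 38 in midbrain i4i5ZRS and 7 in midbrain/limb i4i5ZRS. A 300 kb flank gave -0.28 in ES cells, 0.06 in the Lmbr1 promoter deletion, 0.40 in i4i5ZRS, -0.02 in i4i5ZRS/i4i5 and -0.03 in midbrain. Thinning gave a Shh side ratio of 0.10 in the Lmbr1 promoter deletion, upper flank ratios of 0.26 in i4i5ZRS and -0.01 in midbrain/limb i4i5ZRS, and stripes of 25 in midbrain, 16 in ZRSreg, 15 in the Lmbr1 promoter deletion, 43 in midbrain i4i5ZRS, 16 in i4i5 plus ZRSreg/i4i5, 42 in i4i5 plus ZRSreg/ZRSreg and 32 in midbrain/limb i4i5ZRS. The inner 11 bins gave stripes of 12 in i4i5 plus ZRSreg/i4i5 and 14 in midbrain. Against the G4 maps i4i5ZRS had 12 stripes and i4i5 plus ZRSreg 12. At a threshold of 0.3 stripes numbered 38 in midbrain, 82 in ES cells, 93 in i4i5, 71 in i4i5ZRS, 78 in i4i5 plus ZRSreg, 21 in ZRSreg, 31 in the Lmbr1 promoter deletion, 71 in midbrain i4i5ZRS, 49 in i4i5ZRS/i4i5, 47 in i4i5 plus ZRSreg/i4i5, 93 in i4i5 plus ZRSreg/ZRSreg and 58 in midbrain/limb i4i5ZRS. The causes of these moves were not tested, apart from the lower threshold, which counts more stripes by construction.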
